A study of Drosophila melanogaster with 22 samples.

Results

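Chromosome 4 of Drosophila melanogaster carries 80 protein-coding genes in the RefSeq annotation of Release 6, of 13911 on the 6 chromosomes and arms compared here (4, X, 2L, 2R, 3L and 3R). All 80 were taken as members, whatever their accessibility. Open chromatin was mapped by ATAC-seq, in which a transposase cuts accessible DNA, in nuclei of isolated adult hearts, and each of 22 libraries was deposited as its own list of peaks in build dm6. The groups were w1118 hearts at 5 weeks (3 libraries) and 1 week (3); Hand-Gal4 with LamC RNAi (4) and its attp2 control (4) at 1 week; and Hand-Gal4 with LamB RNAi (5) and its attp40 control (3) at 1 week. The attp2 and attp40 controls were also crossed to Hand-Gal4, a driver active in heart cells; the design text names no driver for the w1118 flies. LamC and LamB encode the A-type and B-type lamins. The design text counts 3 LamC and 4 LamB knockdown libraries, against the 4 and 5 in the labels, and neither the sex of the flies nor the extent of the knockdown is given in the sources used here. The stated aim was to find sites where aging and the knockdown of a lamin have a change in common.

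Chromosome 4, the dot chromosome, is very small and has a mixed character. Its genes lie among repeats and carry heterochromatin protein HP1a and methylated histone H3K9, yet many of them are transcribed, and the protein Pof binds along their bodies. Lamins form the mesh under the inner nuclear membrane, where heterochromatin is often anchored.

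A peak was given to a gene when it lay within 500 bp of either end of the gene, and otherwise to a gene whose body it overlapped. The gene table gives no strand, so a gene end may be a start or a finish. All lists were first brought to the same length, 8491 peaks, by keeping those with the highest −log10 p as the authors give it; the shortest list has that many. A peak's rank score is its place in that list, from 1 for the strongest to just above 0 for the weakest, with 0 for no peak. A score of 0 can therefore hide a weak peak in the longer deposited list. Since a score is a rank, it shows a region's place among the peaks of its own library, not an absolute amount of open DNA.

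Open genes were more frequent on chromosome 4 than on any other chromosome or arm. The share of genes with a peak had a lowest, median and highest value of 72.5%, 75.0% and 78.75% over the 22 libraries. On the other 5 the same values were 46.0%, 55.5% and 61.6%. Chromosome 4 had the highest share in 22 of 22 libraries, with no overlap between the ranges. Peaks at gene ends alone gave 65.0% to 71.25% on chromosome 4 and 43.2% to 59.4% elsewhere, again highest in 22 of 22. The libraries share the same genes, so these are descriptions of 1 genome seen 22 times and were not tested.

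**Figure D1:**
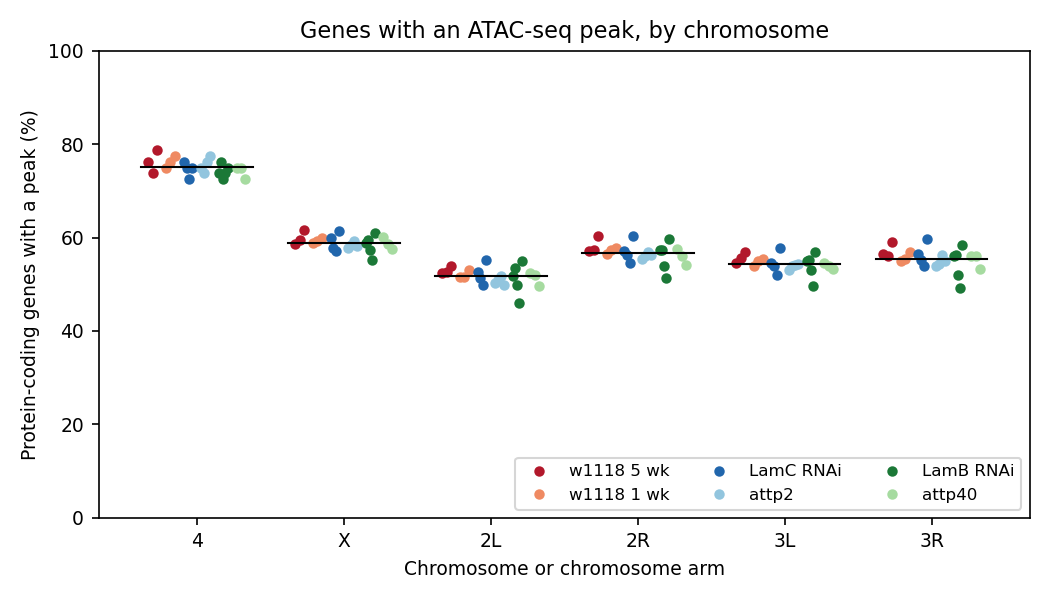
Share of protein-coding genes with a peak (percent, y axis) on chromosome 4 and on 5 other chromosomes or arms (x axis). Each point is 1 library, coloured by group, and each line is the mean of 22 libraries. All chromosome 4 points lie between 72.5% and 78.75%, above every point of the other arms.

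In lists of 8491 peaks, the density of peaks did not stand out in the same way. Chromosome 4 held 5.98 to 6.92 peaks per 100 kb (median 6.49), against 5.95 to 6.94 (median 6.38) on the other arms. It was the densest in 4 libraries and the sparsest in 1. Its peaks ranked somewhat higher, with a median rank score of 0.517 to 0.627, against 0.457 to 0.543 elsewhere, the highest of the 6 in 20 of 22 libraries. The median of the authors' fold enrichment per peak was 5.97 to 8.94 on chromosome 4 and 5.08 to 7.25 elsewhere, highest in 22 of 22. The very strongest peaks were no more common: a median of 9.53% of chromosome 4 peaks and 9.85% of peaks elsewhere scored above 0.9.

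Gene length differs as well: genes of chromosome 4 have a median length of 10.1 kb, against 2.15 kb elsewhere. Among genes of 5 to 15 kb, 71.8% of the 35 on chromosome 4 had a peak on average over the libraries, against 74.5% of 2086 elsewhere. Among genes over 15 kb the shares were 78.8% of 27 and 74.3% of 1328. The gap was wider among shorter genes. Of the 14 genes of 2 to 5 kb 78.6% had a peak, against 65.7% of 3908 elsewhere, and of the 4 genes under 2 kb 67.0%, against 39.1% of 6509. Genes under 2 kb make up 5.0% of the chromosome 4 genes and 47.1% of the others.

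**Figure D2:**
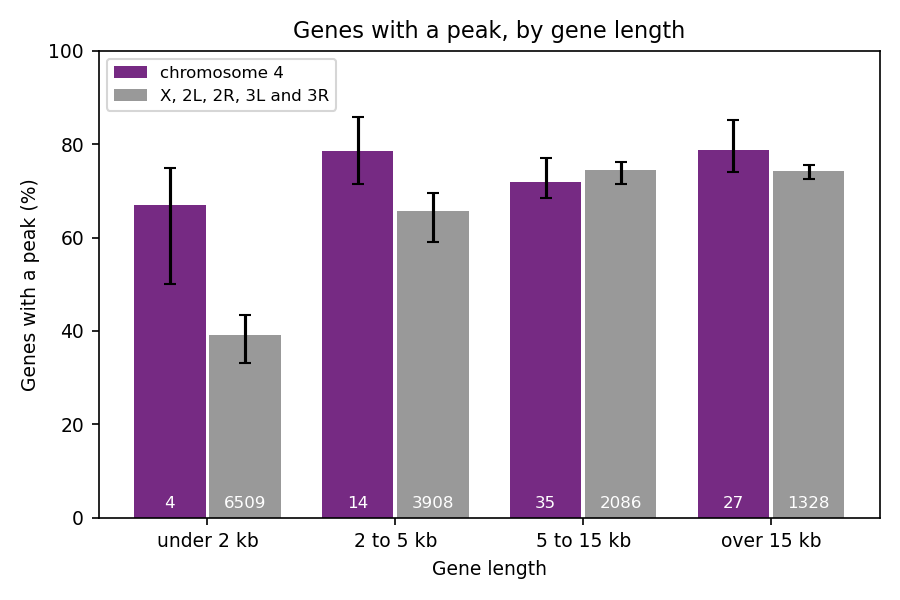
Share of genes with a peak (percent, y axis) by gene length (x axis), for chromosome 4 and for the other 5 chromosomes and arms together. Bars are means over 22 libraries, whiskers run from the lowest to the highest library, and the number in each bar is its gene count. The 2 sets differ by under 5 percentage points above 5 kb and by more than 10 below it.

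Of the 80 genes, 45 (56.25%) had a peak at an end in all 22 libraries, against 39.7% of the genes elsewhere. A further 16 (20.0%) had an end peak in some libraries, 5 (6.25%) had a peak in the body alone, and 14 (17.5%, against 36.0% elsewhere) had none. The 45 always-open genes had median end scores between 0.302 and 0.966, with a median of 0.691, against 0.699 for the 5486 such genes elsewhere. The 56 merged regions at gene ends include 11 that neighbouring genes share, and 20 genes lie at such a region.

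The 10 highest gene ends were those of the following genes. Gyf, a GYF-domain protein of translational repression, had the highest median end score, 0.966. Next came ci, the transcription factor of the Hedgehog pathway, with 0.955, and pan, the TCF factor of Wnt signalling, with 0.941. Tdg, a thymine DNA glycosylase, and Pur-alpha, a nucleic acid binding protein, share 1 region with 0.907. Eph, the ephrin receptor, had 0.899. The silencing protein gene gw, a partner of Argonaute, and CG46466 share a region with 0.895. Hcf, a chromatin cofactor, had 0.875, and CG31998 had 0.873.

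The 14 genes without a peak were JYalpha, a sodium pump subunit known from sperm; the transcription factor genes dati, onecut, fd102C and fuss; the receptor and transporter genes mGluR, Ekar and Gat, which act at synapses; the cell surface gene dpr7; the kinesin gene Kif3C; and RhoGAP102A, Mpv17, CG1909 and CG32006. In the uncut lists 11 of them were still without a peak. RhoGAP102A had one in 5 libraries, fuss in 2 and Ekar in 1.

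Transcription factors were split: of 14, 7 had an open end in all libraries, 2 in some, 1 in the body alone and 4 never. Besides ci and pan, the Mitf end, of a factor for lysosome genes, scored 0.762, Sox102F 0.745, the Pax gene sv 0.691 and zfh2 0.650 (medians of 22 libraries). The Pax6 pair differed. The end of toy was open in every library but low, with 0.302. Its partner ey had no end peak, and a body peak in 12 libraries. NfI had an end peak in 17 libraries, with a median of 0.147. The end of pho, a DNA-binding Polycomb group gene, was open in 21 libraries, with 0.413.

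The muscle, energy and calcium genes were all open in most libraries. ATPsynbeta, the beta subunit of mitochondrial ATP synthase, shares its end region with CG11076 and had a median of 0.791. CaMKI, a calcium/calmodulin kinase, had 0.721, the zyxin gene Zyx 0.531 and the plasma membrane calcium pump PMCA 0.501. The end of bt, which encodes projectin, a giant protein of the sarcomere, was open in 21 of 22 libraries but with a median of 0.343. That of CG1674 was open in 18, with 0.456.

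Of 7 genes for secreted signals and receptors 6 were always open. They include the TGF-beta ligands myo, with 0.810, and mav, with 0.580; the plexin genes PlexB, with 0.793, and PlexA, with 0.629; and Ephrin, with 0.545. The activin Actbeta was open at an end in 19 libraries, with a median of 0.273. All 6 genes for RNA and protein synthesis and turnover were always open, from RpS3A, a ribosomal protein gene, with 0.450, to Gyf. The proteasome shuttle gene Rad23 had 0.811, the translation repressor 4E-T 0.813 and Slip1 0.523. The lipoprotein gene apolpp had 0.690. The other always-open genes include Ank, anne, Arl4, Crk, Rnf11, lgs, Taf3, ND-49, CG11360, Arf4 and PIP4K, with median end scores from 0.370 (Taf3, a subunit of the general transcription factor TFIID) to 0.811 (Rnf11).

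Synaptic genes were mixed. Cals, a cadherin family gene, had a median end score of 0.741. Cadps, which serves release of dense-core vesicles, had 0.672 at an end shared with the kinase gene Dyrk3. No end peak was given to the vesicle priming gene unc-13, but a peak in its body had a median of 0.898, among the strongest of the chromosome. Syt7 had an end peak in 1 library, and dpr7 and mGluR none. The genes with a body peak alone were unc-13, ey, CG33978 (1 library), CG32017 and Asator, a kinase of microtubules. The ends of CG31999, yellow-h, CG11155, CG33521, CG31997, CaMKII, eIF4G1, CG33941, MED26 and Zip102B were open in 2 to 21 libraries.

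**Figure D3:**
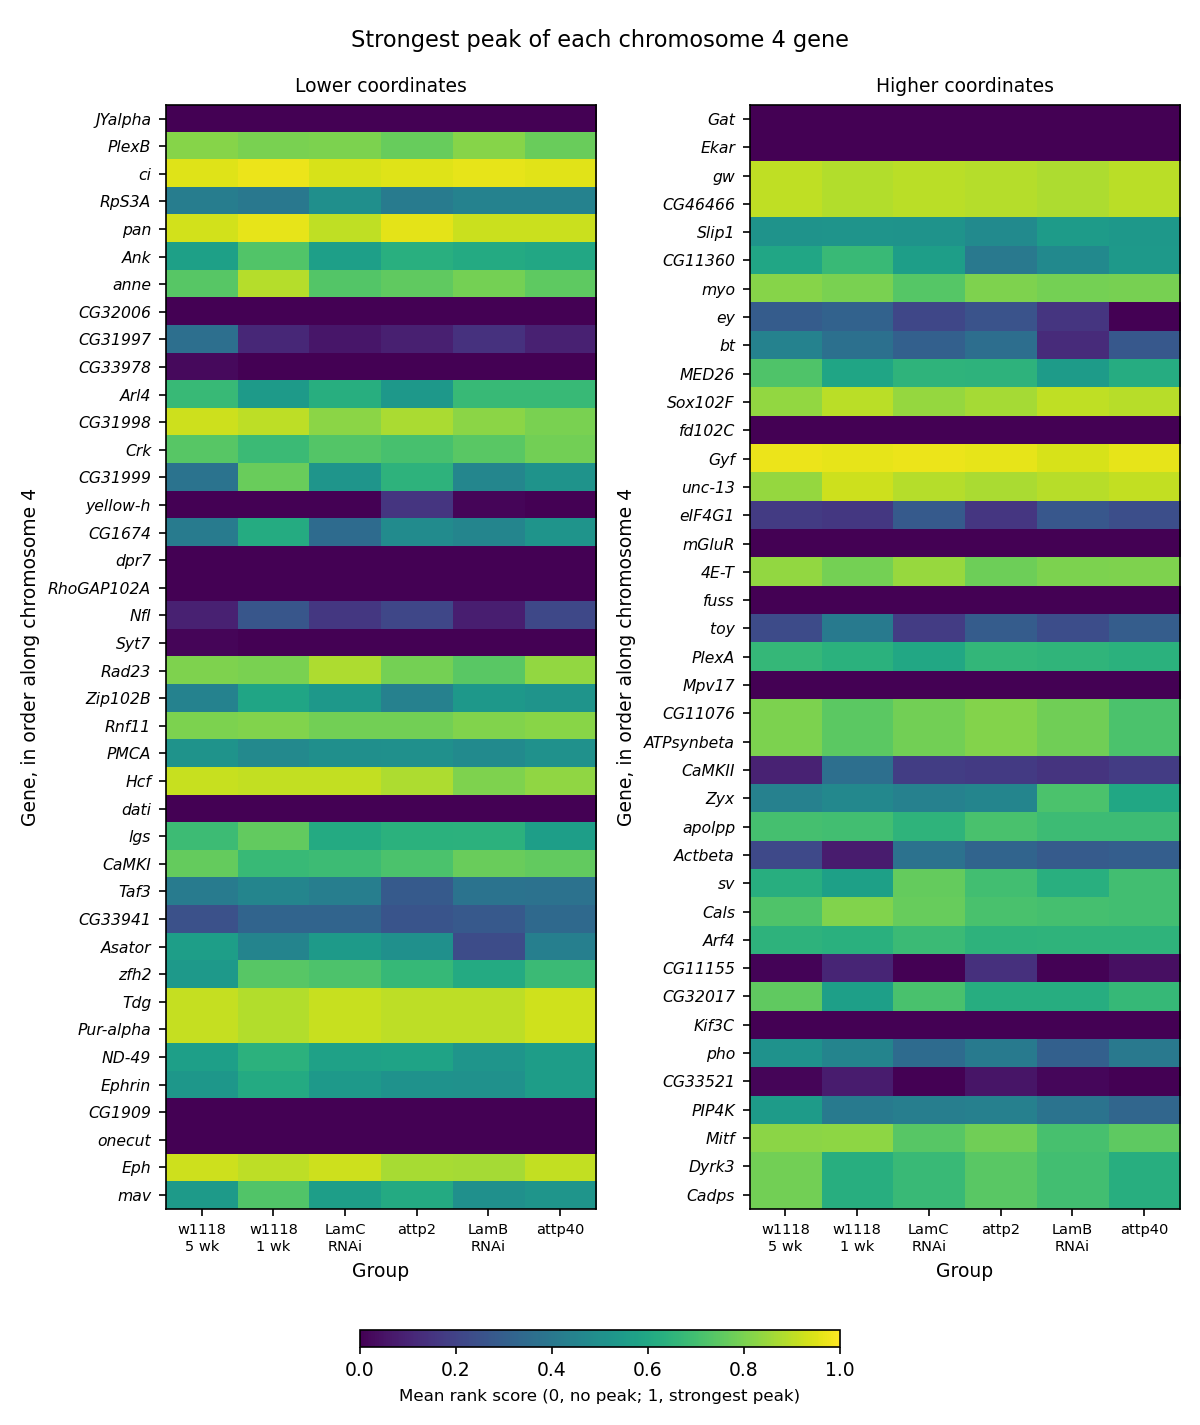
Mean rank score of the strongest peak of each gene, for 79 of the 80 (colour, 0 to 1), in order along chromosome 4 from top to bottom and then in the right panel, by group (columns). Rows at 0 in all 6 groups are the 14 genes without a peak, which lie scattered along the chromosome, and most rows keep a similar colour across the 6 groups.

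Genes for proteins known to act on chromosome 4 chromatin lie elsewhere, and most were open. The ends of Su(var)3-7, Su(var)3-9, wde, Pof, Su(var)2-HP2 and the histone methyltransferase gene egg were open in all 22 libraries, with median scores from 0.515 (egg) to 0.797 (Su(var)3-7). The end of the HP1a gene was open in 20, with 0.394. None of the 10 regions of these 7 genes passed the test in the age, LamC or LamB comparison, with lowest adjusted p-values of 0.0574, 0.887 and 0.559 in limma.

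Peaks away from genes were also more frequent than elsewhere. They made up 11.3% to 17.7% of chromosome 4 peaks, against 4.78% to 10.0% on the other arms, highest in 22 of 22 libraries. Peaks in gene bodies were the fewest of the 6 in 22 of 22, with a median of 22.1%, against 32.2%. The strongest region of the chromosome belonged to no protein-coding gene. At chr4:1318271-1319279, which is 46512 bp beyond the end of Cadps, the last coding gene of the chromosome, rank scores ran from 0.988 to 1.00, with a mean of 0.999. It stood at the top of the list in all 3 hearts of 5 weeks, and the highest w1118 score at 1 week was also 1.00. Means of the 6 groups ran from 0.996 to 1.00. A second at chr4:1305904-1306782, 34145 bp beyond Cadps, had a mean of 0.975 and a range from 0.869 to 1.00. Inside the gene-rich part, regions at chr4:424690-425262, 11695 bp from the Wnt cofactor gene lgs, and at chr4:415559-416810, 19954 bp from dati, had mean scores of 0.806 and 0.606 and a peak in all 22 libraries.

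Over the chromosome as a whole, the groups compared differed little. The share of genes with a peak was 76.25% ± 2.5 at 5 weeks and 76.25% ± 1.25 at 1 week (SD, n = 3 each). It was 74.7% ± 1.57 after LamC RNAi (n = 4) and 75.6% ± 1.61 in attp2 (n = 4), and 74.25% ± 1.43 after LamB RNAi (n = 5) and 74.2% ± 1.44 in attp40 (n = 3). Peaks per 100 kb were 6.77 ± 0.208 at 5 weeks and 6.45 ± 0.0787 at 1 week, 6.43 ± 0.324 after LamC RNAi and 6.71 ± 0.0753 in attp2, and 6.39 ± 0.331 after LamB RNAi and 6.29 ± 0.136 in attp40. The libraries at 5 weeks had 83, 87 and 88 peaks on the chromosome, those at 1 week 81, 82 and 83. Their median rank score was 0.517, 0.555 and 0.580 at 5 weeks and 0.580, 0.598 and 0.627 at 1 week. The old hearts lay just below the young ones without overlap. It was 0.581 ± 0.0431 after LamC RNAi and 0.565 ± 0.0240 in attp2, and 0.577 ± 0.0217 after LamB RNAi and 0.581 ± 0.0122 in attp40.

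To compare single sites, overlapping peaks were merged and those in at least 3 libraries kept, which gave 9850 regions, 94 on chromosome 4. Of the 94, 56 lie at gene ends, 23 in bodies and 15 away from genes, and 60 (63.8%) had a peak in all 22 libraries, against 53.3% of all regions. Rank scores were tested with limma on all regions and libraries, with adjusted p-values over all 9850. The labels do not say whether libraries came from separate groups of flies, so p-values measure the spread between these samples. In these bulk samples, fewer open cells and a weaker peak in each cell cannot be told apart.

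With age 2 of the 94 regions rose and 0 fell. Among all 9850 regions 130 were called (1.32%), with 0.609% higher and 0.711% lower. Both risen regions lie in gene bodies towards the end of the chromosome with the higher coordinates. Inside Cadps, at chr4:1268334-1268917, the 3 hearts of 5 weeks scored 0.216, 0.305 and 0.343, and the 3 hearts of 1 week all scored 0. The groups did not overlap, and the difference was 0.288 ± 0.0319 (SE, limma adjusted p = 3.72e-05). The deposited lists held a peak there in all 3 old libraries and in 1 of 3 young ones. Inside pho, at chr4:1173802-1174228, the old hearts scored 0.0583, 0.274 and 0.261, against 0 in the 3 young hearts. The difference was 0.198 ± 0.0368 (limma adjusted p = 0.00697). In 1 of these 3 old libraries the peak was close to the end of its list. Both regions met the minimum of 3 libraries only through the old hearts. In the cut lists the pho region had a peak in those 3 alone, and the Cadps region in those 3 and in 2 LamC RNAi hearts. Regions kept in this way had to differ, so their count is no support for a change of the chromosome. Both calls rest on the spread pooled over 6 groups, in most of which the score was 0 throughout. In a fit on the w1118 libraries alone the same differences had limma adjusted p-values of 0.102 (Cadps) and 0.371 (pho).

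The same 2 regions were at or near 0 in the other groups. At the Cadps region the 4 LamC RNAi hearts scored 0.0954, 0.0443, 0 and 0, against 0 in all 4 attp2 hearts (difference 0.0349, limma adjusted p = 0.902), and the LamB RNAi and attp40 hearts scored 0. With the same limit on how the region was kept, the age difference there exceeded that of LamC RNAi by 0.253 and that of LamB RNAi by 0.288, tested as differences between changes, written as −0.253 and −0.288 for knockdown minus age (limma adjusted p = 0.00689 and 0.00226). It was the single chromosome 4 region past the threshold in these 2 tests, of 39 regions (0.396%, with 0.162% lower) and 15 regions (0.152%, with 0.0914% lower) in all. At the pho region all other groups scored 0. The uncut lists held a weak peak at the pho region in 1 of 3 w1118 libraries of 1 week and 1 of 4 LamC RNAi libraries. At the Cadps region they held one in 3 of 4 LamC RNAi, 1 of 4 attp2 and 1 of 5 LamB RNAi libraries.

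Other differences with age were of similar size but did not pass the test. In the body of CG31999, hearts of 5 weeks scored 0.580, 0.459 and 0.105, against 0.790, 0.793 and 0.734 at 1 week. The groups did not overlap, and the difference was −0.391 ± 0.109 (limma adjusted p = 0.0796). It passed without the first library of 5 weeks (−0.490, adjusted p = 0.0295), as did a region inside anne. At an end of CaMKII, the calcium/calmodulin kinase II gene, the scores were 0.286, 0 and 0 at 5 weeks. At 1 week they were 0.291, 0.368 and 0.439 (−0.271, limma adjusted p = 0.239). All 3 old libraries still listed a peak there, with an authors' fold enrichment of 3.51 to 6.48, against 6.21 to 6.63 at 1 week. At an end of zfh2 the scores were 0.381, 0.555 and 0.501 at 5 weeks, against 0.884, 0.654 and 0.681 at 1 week (−0.261, limma adjusted p = 0.119). The scores of the groups overlapped at neither end. Groups did not overlap in 18 of the 94 regions (8 higher, 10 lower with age), or 19.1%, against 14.9% of all regions. The median difference was 0.00361 over chromosome 4 and 0 over all regions.

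Sums over marker genes also differed with age, without overlap for heart muscle, nephrocytes and hemocytes. Summed over 8 heart muscle markers, of which tin was at 0 in all 22 libraries and the other 7 had open ends in all of them, the rank score of the strongest peaks was 4.51 to 5.28 at 5 weeks and 5.44 to 5.85 at 1 week. For 4 pericardial nephrocyte markers (Cubn at 0) it was 0.591 to 0.866 at 5 weeks and 1.22 to 1.79 at 1 week. For 5 hemocyte markers (He at 0) it was 1.41 to 1.58 at 5 weeks and 1.62 to 1.81 at 1 week. The groups overlapped for 4 fat body markers (Fbp1 and Lsp1alpha at 0), with 1.09 to 1.31 at 5 weeks and 0.737 to 1.14 at 1 week. Of these markers apolpp is itself a gene of chromosome 4. They also overlapped for neuron markers (nSyb at 0), with 1.42 to 1.64 at 5 weeks and 1.38 to 1.57 at 1 week, and for germline markers (aub at 0), with 1.56 to 1.75 at 5 weeks and 1.52 to 1.73 at 1 week. Of the marker regions, 1 of 21 for heart muscle and 1 of 3 for nephrocytes fell with age, against 0.711% lower of all 9850 regions. The part of cell makeup in the chromosome 4 differences was not tested.

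After LamC RNAi 1 of the 94 regions fell and 0 rose, among 15 called in all (0.152%, with 0.0812% higher and 0.0711% lower). It lies between genes, at chr4:959619-960474, 1227 bp from 4E-T, and the long noncoding RNA gene lncRNA:CR45201 and the antisense gene asRNA:CR44030 are within 500 bp. The 4 LamC RNAi hearts scored 0, 0.0687, 0.0399 and 0, against 0.424, 0.496, 0.534 and 0.455 in the 4 attp2 hearts. The groups were far apart, with a difference of −0.450 ± 0.0643 (SE, limma adjusted p = 0.000986). The call was lost with lists of 4245 peaks (−0.0172, limma adjusted p = 1.0) and with a −log10 q of at least 10 (−0.246, limma adjusted p = 0.331). A weak peak was still there, since all 4 knockdown libraries listed one, with an authors' fold enrichment of 3.24 to 4.16, against 5.34 to 7.31 in attp2. All the other groups were open, with means of 0.484 (w1118, 5 weeks), 0.592 (w1118, 1 week), 0.404 (LamB RNAi) and 0.402 (attp40). The test of the difference between the LamC and LamB changes found 0 of 94 regions, among 7 in all (0.0711%). At an unadjusted p under 0.05 it found 6 of the 94, or 6.38%, against 6.81% of all.

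**Figure D4:**
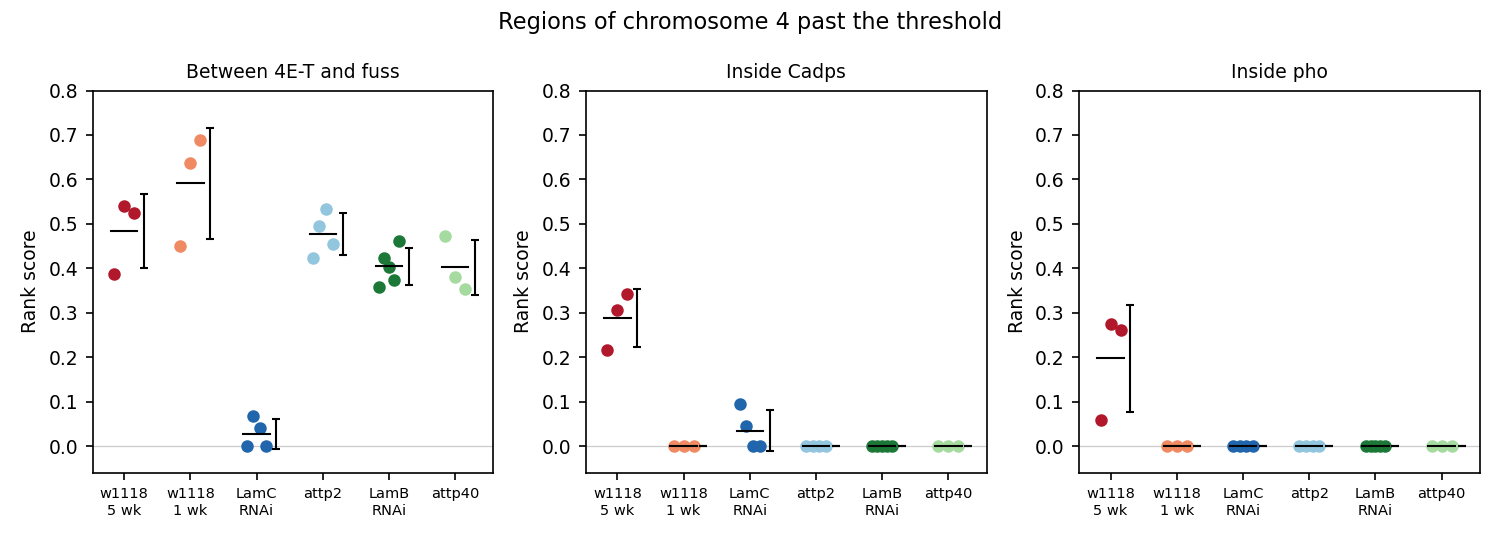
Rank score (y axis) in each library (points) by group (x axis) at the 3 chromosome 4 regions past the threshold with age or after LamC RNAi, with means (lines) and SD (whiskers). The region between 4E-T and fuss is near 0 after LamC RNAi alone. Those inside Cadps and pho are highest at 5 weeks, with scores of at most 0.343 and 0.274.

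The next largest LamC differences did not pass. A region in the body of unc-13 scored 0.209, 0.168, 0.0940 and 0.275 after LamC RNAi, against 0.489, 0.476, 0.267 and 0.369 in attp2, which overlap slightly (−0.213, limma adjusted p = 0.468). In the body of Mitf the mean was 0.263 ± 0.0407 after LamC RNAi and 0.462 ± 0.138 in attp2 (SD, n = 4 each; −0.199, limma adjusted p = 0.756). Regions of CG1674 differed by −0.167 in the body and −0.159 at the end shared with yellow-h (adjusted p = 0.812 and 0.883). Groups did not overlap in 4 of 94 regions (4.26%), against 3.09% of all. The median difference was −0.00205 over chromosome 4 and 0.00166 over all regions. The summed heart muscle score was 4.79 to 5.33 after LamC RNAi and 5.19 to 5.58 in attp2, and that of nephrocytes 0.473 to 1.19 after LamC RNAi and 0.721 to 0.796 in attp2; their part was not tested.

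LamB RNAi gave 0 of 94 regions past the threshold in limma, against 18 in all (0.183%), and 4 at an unadjusted p under 0.05, which is 4.26%, against 6.40% of all regions. The largest difference lay 988 bp from CaMKI, at chr4:454935-456336. There 4 of the 5 LamB RNAi hearts scored 0 and 1 scored 0.0901, against 0.318, 0.398 and 0.270 in attp40. A weak peak was still listed in all 5 LamB RNAi libraries. Its authors' fold enrichment was 2.54 to 4.73, against 5.20 to 7.33 in attp40. The groups did not overlap, but the difference of −0.311 ± 0.0678 missed the threshold (limma adjusted p = 0.0673), and w1118 hearts of 1 week varied from 0 to 0.368 at the same site. In the body of Hcf the LamB RNAi mean was 0.235 ± 0.146 and the attp40 mean 0.511 ± 0.0322 (−0.275, adjusted p = 0.559). In the body of Asator it was 0.232 ± 0.149 after LamB RNAi and 0.432 ± 0.138 in attp40 (−0.200, limma adjusted p = 0.615). At an end of MED26 it was 0.415 ± 0.250 after LamB RNAi and 0.188 ± 0.326 in attp40 (0.226, limma adjusted p = 0.971). In the body of ey it was 0.155 ± 0.213 after LamB RNAi and 0 in attp40 (0.155, limma adjusted p = 0.971; all SD, n = 5 for LamB RNAi and 3 for attp40). Groups did not overlap in 5 of 94 regions (5.32%), against 3.16% of all. The summed heart muscle score was 4.58 to 5.14 after LamB RNAi and 5.09 to 5.40 in attp40. Of the heart muscle regions 1 of 21 fell, against 7 of all 9850 regions. The nephrocyte sum was 0.627 to 1.41 after LamB RNAi and 1.37 to 1.53 in attp40. Their part was not tested.

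**Figure D5:**
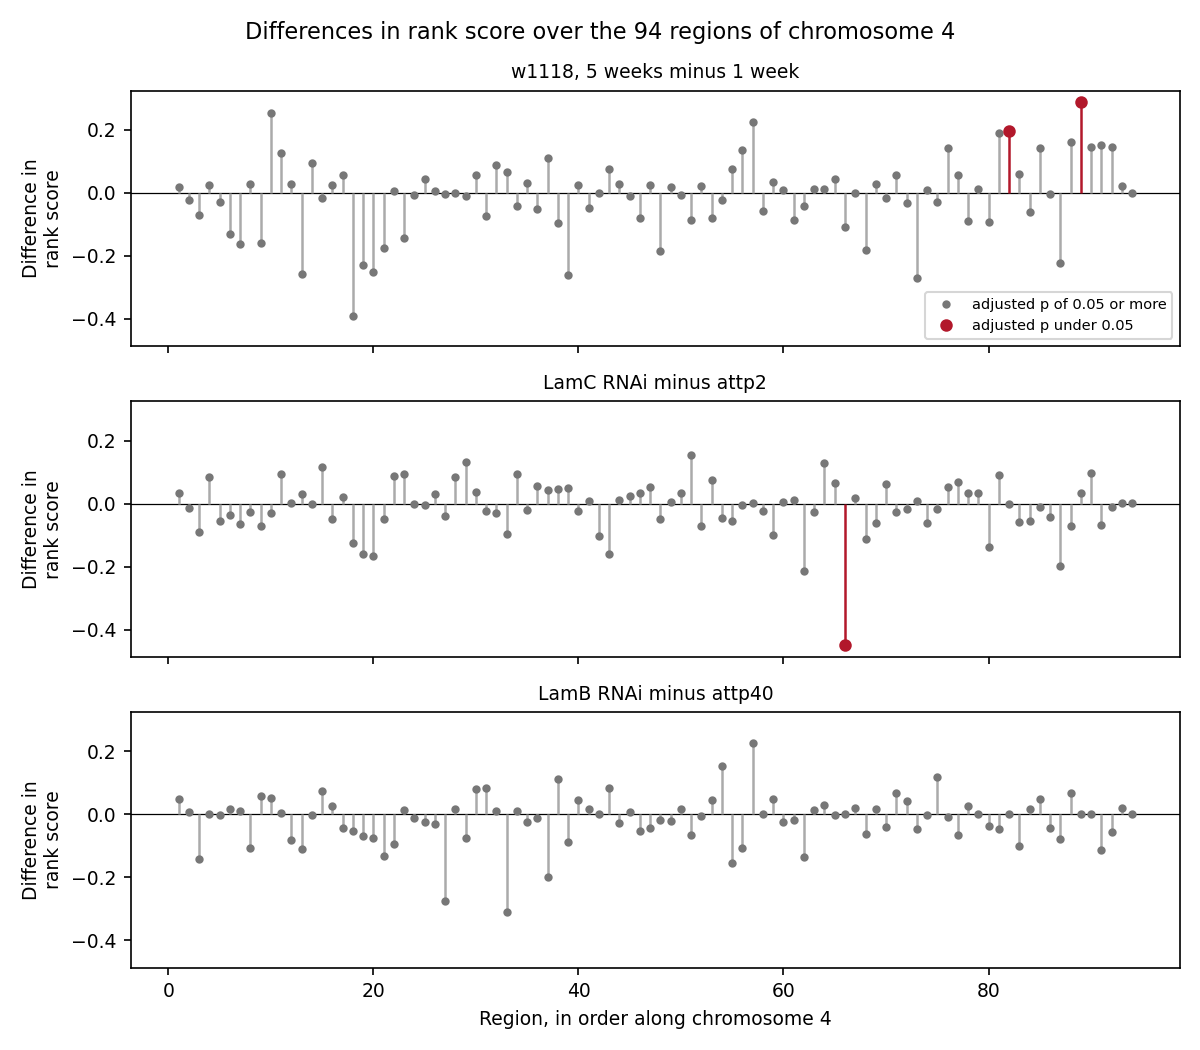
Difference in rank score (y axis) at each of the 94 regions, in order along chromosome 4 (x axis), for 5 weeks minus 1 week, LamC RNAi minus attp2 and LamB RNAi minus attp40. Red marks regions with a limma adjusted p under 0.05: 2 with age, 1 after LamC RNAi and 0 after LamB RNAi.

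By role, 1 of 16 transcription factor regions rose with age, against 0.609% higher of all regions; it is the one inside pho, kept through the old hearts. The list's median difference with age was −0.0262, and none of its regions passed in the lamin comparisons. No region of the muscle, energy and calcium genes passed in the age, LamC or LamB comparison (8 regions, medians 0.0129, −0.0285 and −0.0326), nor did any of the signal and receptor genes or of the RNA and protein genes. Among the 8 regions of synaptic genes the Cadps region, kept in the same way, was the single call. Over all regions the medians were 0 for age, 0.00166 for LamC and −0.00296 for LamB.

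Control hearts of the 2 RNAi strains were compared as well. Between attp2 and attp40, 0 of 94 regions passed, among 19 in all (0.193%), and 5 (5.32%) had an unadjusted p under 0.05, against 9.55% of all.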

How the data were processed

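The submitters' processing notes name Bowtie2, SAMtools, Picard, MACS2 and build dm6, with no versions or settings; nothing says how reads were shifted. Each library's peaks were deposited as a list of 8491 to 12395 with the authors' fold enrichment (a ratio), −log10 p and −log10 q per peak, and no listed −log10 q was below 2.00. The lists hold no read counts, so depth is unknown and no interval for it is given. Chromosome 4 holds 2115 of the 227249 deposited peaks, or 78 to 118 per library.

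Genes were taken from the RefSeq table (Release 6, the assembly of dm6), whose spans carry no strand. The span used for density runs from 879 to 1271759, the outer ends of the coding genes, so the peaks beyond Cadps add to the count but not to the length. Lists were cut to 8491 peaks, ranked by −log10 p and merged at an overlap of at least 1 bp, and regions in at least 3 libraries were kept. Rank scores were fitted with limma 3.58.1 in R 4.3.3 (22 libraries, 6 group means, trended variance), with Benjamini-Hochberg adjustment over all regions and a threshold of 0.05. The code was tested on simulated data with shifts added to regions of intermediate mean score. That test does not cover regions at 0 in most libraries, such as those inside Cadps and pho. Other steps used Python 3.11.15 with pandas 2.3.3.

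Members, role lists and tests were chosen with earlier results of these data known. Named are all regions past a threshold, the 10 highest gene ends, genes without a peak, the 5 largest differences per study comparison and the role list members; anne and Tdg were added after their values were seen, and some results are not reported here. Replicate numbers in the titles were not taken as pairs of libraries. Dates in the names of the lists, of a kind not stated, were not used as a batch: they fall in the same weeks for both ages and in the same month for LamC RNAi and attp2, while an attp40 list is months older than the LamB RNAi lists. Alternatives were other list lengths, ranking by fold enrichment, a −log10 q of at least 10, merging at 100 bp, regions in at least 1 library, fits on the 2 groups, a replicate block, library weights and leaving out each library.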

Additional observations from a re-analysis of the deposited data

Results flagged for a closer look

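In groups of 4 or 5 libraries, 3 of 49 sets of values, at the named regions or over the whole chromosome, held 1 library far from the rest. Chance gives about 1 in 20 where values have a normal spread. Scores cut to 0 do not, so that rate is no measure for these 3 sets. At the end shared by yellow-h and CG1674, the second LamC RNAi library scored 0, while the other 3 scored between 0.373 and 0.425. The uncut lists held a peak there in all 4. At an end of MED26 the third LamC RNAi library scored 0, while the others scored 0.514 to 0.601. Near CaMKI, the second LamB RNAi library scored 0.0901 and the other 4 scored 0. With those 4 at 0, any score above 0 would have been flagged, and the uncut lists held a peak there in all 5.

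The region inside Cadps passed the threshold when the age change was compared with that of either knockdown. The difference between changes was −0.253 for LamC RNAi minus age and −0.288 for LamB RNAi minus age, with limma adjusted p-values of 0.00689 and 0.00226. The score was higher in 3 of 3 old hearts than in every young one, and 2 of 4 LamC RNAi hearts had a low score there. The region met the minimum of 3 libraries only through the old hearts, so these tests are no support for a difference.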

How the results depend on the processing

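Ranks compare places within lists and depth is unknown, so a small change cannot be told from a change in the rest of the list. The 2 regions called with age became 6 with whole deposited lists, 0 with lists cut to 4245 peaks and 0 in a fit on the 2 groups; leaving out a library gave 2 to 4, the 4 without the first library of 5 weeks. With a −log10 q of at least 10 the count was also 2, but at other regions. The 1 LamC region became 2 with whole lists and 2 ranked by fold (Tdg was added), and 0 with lists of 4245 and 0 with the stricter q; leaving out a library gave 1 to 1. LamB stayed at 0 in every setting run. Between attp2 and attp40, whole lists gave 1 and fold ranks 1, at Tdg. The difference between the LamC and LamB changes became 1 with whole lists, library weights or regions in at least 1 library, the region near 4E-T each time. LamC minus age gave 3 with whole lists, 2 with weights, 2 by fold, 0 with lists of 4245 and 0 with the stricter q; LamB minus age gave 3, 2 by fold, 0 and 0. The cause was not tested.

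With the replicate number as a block, the age, LamC, LamB and attp2 against attp40 comparisons each had 0 chromosome 4 regions past the threshold (the differences between changes were not fitted with it), and the region near 4E-T had an adjusted p of 0.804. Same-numbered libraries correlated by 0.0237 to 0.147 (age, 3 pairs), −0.274 to 0.0385 (LamC, 4 pairs) and 0.0841 to 0.213 (LamB, 3 pairs). The libraries that correlated best with their own number were 2 for age, 1 for LamC and 2 for LamB. The numbers were not taken as pairs, but these values do not settle whether they are. Over all regions, counts ranged from 0 to 349 for age (130), 1 to 22 for LamC (15) and 0 to 24 for LamB (18). The mean share of chromosome 4 genes with a peak, 75.1%, was 77.7% with whole lists, 55.3% with lists of 4245, 67.2% with the stricter q, 78.1% with ends taken to 1000 bp and 68.6% with ends alone. Peaks per 100 kb, 6.50, were 7.56, 3.86 and 5.15 in the first 3 of these and 6.83 by fold. The median rank score, 0.576, was 0.464 with lists of 4245, 0.487 with the stricter q and 0.656 by fold. No values of the other arms are given here for these settings, so the place of chromosome 4 among them is not shown. Of 238 values of the named regions under alternatives, 228 kept their direction and side of the threshold, 7 lost the call, 1 gained one, 0 reversed and 2 came to 0 with lists of 4245 peaks (unc-13 after LamC RNAi, ey after LamB RNAi). Most of the 15 named differences were not past the threshold to begin with. An alternative in which no region overlapped the named one gave no value and is not among the 7. The Cadps and pho regions therefore had 13 values each, against 15 for zfh2 with age.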
